A study of Danio rerio with 15 samples.

Results

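The 200 transcripts described here were lower in zebrafish larvae exposed to tefluthrin at 2.3 µM than in untreated larvae, while at 60 nM of the same compound they stood close to the untreated level. They were chosen from 64995 transcripts on the measured values of the 9 control and tefluthrin libraries, after each library had been scaled by the median of its ratios to the mean library. A transcript had to have a control mean between 50 and 10000 normalised counts and a mean at 2.3 µM at least 0.8 log2 units under control, with 5 added to each mean before the logarithm. The mean at 60 nM had to lie within 0.15 log2 units of control, and the highest library at 2.3 µM had to lie below every control and every 60 nM library. Of 21417 transcripts with a control mean in that range, 2108 met the condition on 2.3 µM, 306 of these also that on 60 nM, and 249 every condition. The 200 with the largest drop were kept. The values in control and tefluthrin libraries are therefore a description of the choice and carry no test. The 6 acetochlor libraries took no part in the choice.

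RNA came from pools of whole wild-type larvae of the NHGRI-1 strain, collected at 72 h post fertilisation, with 3 libraries in each of 5 groups. Controls were untreated. The other larvae were kept from 48 h to 72 h in tefluthrin at 60 nM or 2.3 µM or in acetochlor at 780 nM or 7.8 µM. The labels name no solvent control, clutch, batch or number of larvae in a pool, so nothing says whether the replicates I, II and III were separate clutches, and the spread between them may be in part technical. The headers of the higher tefluthrin files give nanomolar where the titles and treatment labels give micromolar, and the labels were followed.

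Tefluthrin is a pyrethroid insecticide. Pyrethroids hold voltage-gated sodium channels open and so overexcite nerve cells, in insects and also in fish. Acetochlor is a chloroacetanilide herbicide that blocks the synthesis of very-long-chain fatty acids in plants. The exposure covered the time in which a zebrafish larva hatches, begins to swim, lives on its yolk, and enlarges its liver, pancreas and gut. In RNA from whole larvae, fewer cells that make a transcript and less of the transcript in each cell cannot be told apart.

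The files name transcripts by Ensembl identifier alone, and 0 of the 64995 identifiers matched the tables of gene names used here. The members are therefore given by identifier, with no gene name, function or sequence, and the lists of pathway genes and tissue markers could not be applied. Library totals were between 17354405 and 25191374 estimated counts. All 200 transcripts passed the filter on low counts that preceded the tests.

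Together the 200 transcripts made up 0.519% ± 0.0442 of all counts in control (SD, n = 3) and 0.525% ± 0.0327 at tefluthrin 60 nM, but 0.183% ± 0.0266 at tefluthrin 2.3 µM. The acetochlor groups stood at 0.535% ± 0.0977 at 780 nM and 0.589% ± 0.0579 at 7.8 µM. By library the share was 0.163%, 0.174% and 0.213% at 2.3 µM, and no library of another group was under 0.423%. The summed normalised count at 2.3 µM was 60.9% below that of control, and the 10 transcripts with the most counts in control held 56.2% of this gap.

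**Figure D1:**
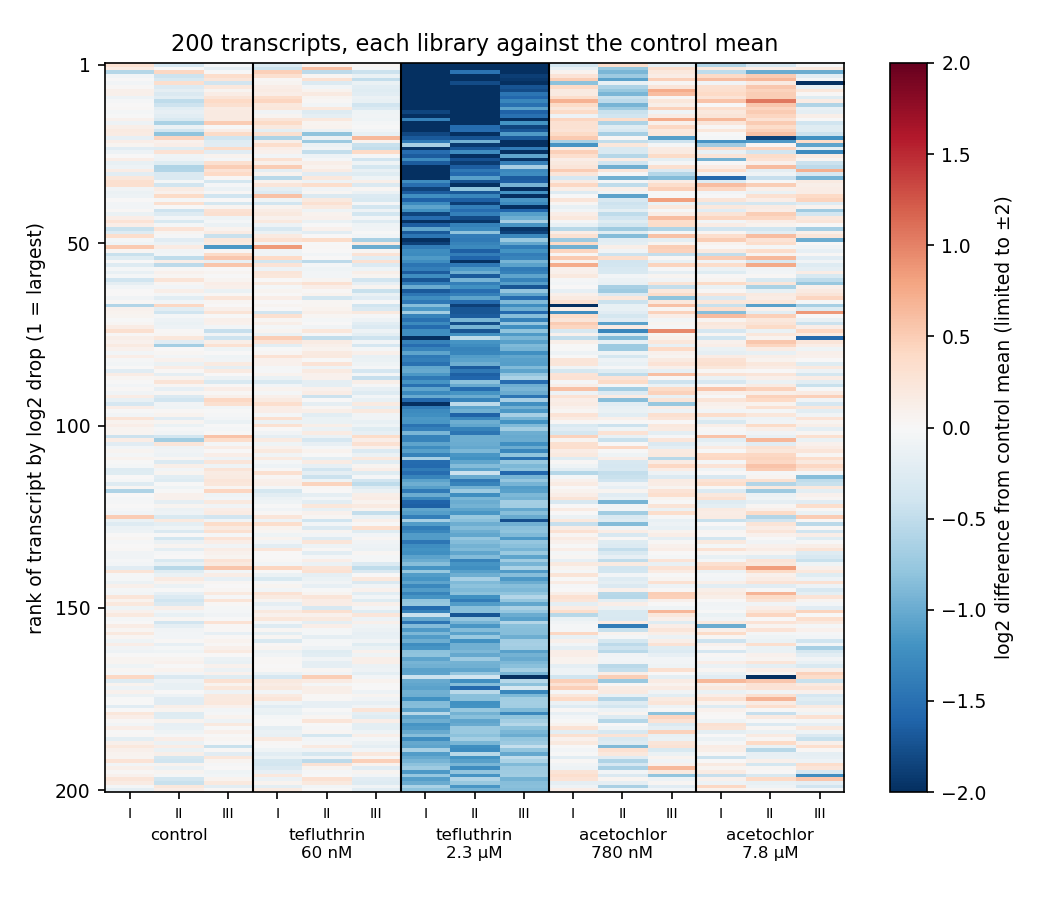
Each row is 1 of the 200 transcripts, ordered by the size of its drop at tefluthrin 2.3 µM, and each column is 1 of the 15 libraries; colour gives the log2 difference of the normalised count (5 added) from the control mean, limited to ±2. The 3 columns at 2.3 µM are blue by the choice of the transcripts, and outside them the column of acetochlor 780 nM replicate II is bluer than replicates I and III of its group.

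Single transcripts differed in how far they stood below control. The log2 drop ran from 0.86 to 4.32 with a median of 1.11, and its quartiles were 0.96 and 1.36. At 2.3 µM a transcript kept a median of 44.3% of its control mean and at most 54.0%. In 156 of the 200 the mean at 2.3 µM was at or under 50% of control, and in 15 at or under 25%. The median drop was 1.1 for the 66 transcripts with control means of 50 to 100, 1.1 for the 78 at 100 to 300 and 1.1 for the 37 at 300 to 1000. It was 1.26 for the 19 above 1000. The transcripts were chosen and ranked on this drop, so nothing is read from how alike these medians are. At 60 nM, 83 transcripts had a mean above control and 117 below, within the limit that the choice set.

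**Figure D2:**
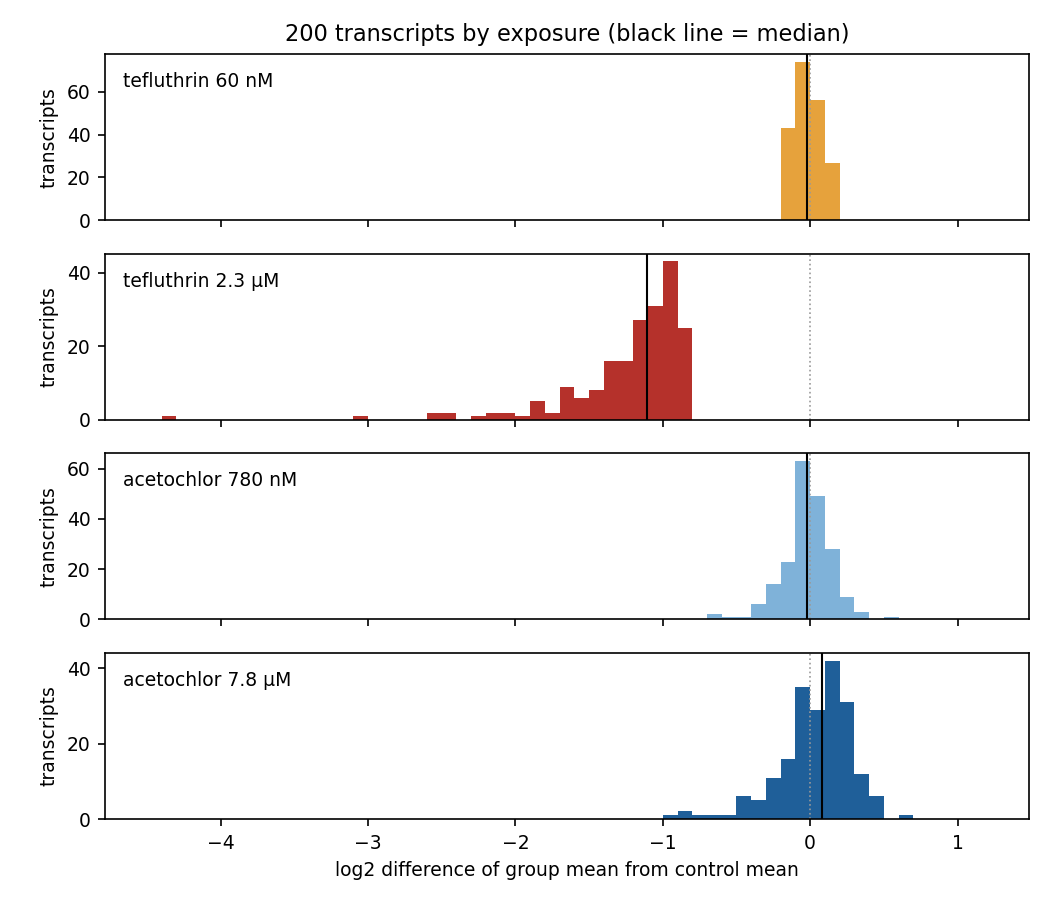
Histograms of the log2 difference between the mean of each exposed group and the control mean for the 200 transcripts, 1 panel per exposure, with the median as a black line. Tefluthrin 60 nM is bounded by the choice, tefluthrin 2.3 µM reaches a drop of 4.32, and the acetochlor groups spread around 0 with medians of -0.02 and 0.08.

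The transcripts with the most counts in control showed both deep and shallow drops. Counts rise with transcript length, which the files do not give, so these levels rank reads and not molecules. ENSDART00000170632.2, whose deposited estimates were exactly whole numbers, with no tolerance, in all 15 libraries, had 8817, 8211 and 11351 normalised counts in the controls and 12045, 9811 and 8700 at tefluthrin 60 nM. At 2.3 µM it had 1896, 1577 and 3178, which is 4.27-fold below the control mean of 9460 ± 1666 (SD, n = 3). The highest library at 2.3 µM was far below the lowest of every other group.

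ENSDART00000011178.9 had 7233, 5928 and 8240 normalised counts in control, 7806, 6875 and 6182 at 60 nM and 1283, 986 and 2141 at 2.3 µM, a mean 4.85-fold below control. ENSDART00000062363.6 had 5363, 4106 and 5586 in control, 5528, 5691 and 4354 at 60 nM and 903, 748 and 1816 at 2.3 µM, a mean 4.34-fold below control. In these transcripts and in ENSDART00000170632.2, replicate III at 2.3 µM was the highest of its group and replicate II the lowest. ENSDART00000078996.5 had the same order at 2.3 µM, with 2138, 1777 and 3110 normalised counts against 6739, 5889 and 5793 in control, a mean 2.62-fold below control.

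The other transcripts of this size behaved otherwise. ENSDART00000093611.3, with whole estimates, had 9410, 9573 and 9883 normalised counts in control and 4448, 5191 and 5150 at 2.3 µM, so that replicate I was the lowest. Its mean was 1.95-fold below control, and its control spread of ± 240.1 (SD, n = 3) around 9622 was much narrower than that of ENSDART00000170632.2. ENSDART00000145330.2 had 7673, 9200 and 6272 in control and 3403, 4349 and 2668 at 2.3 µM, where replicate II was the highest, with a mean 2.22-fold below control.

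**Figure D3:**
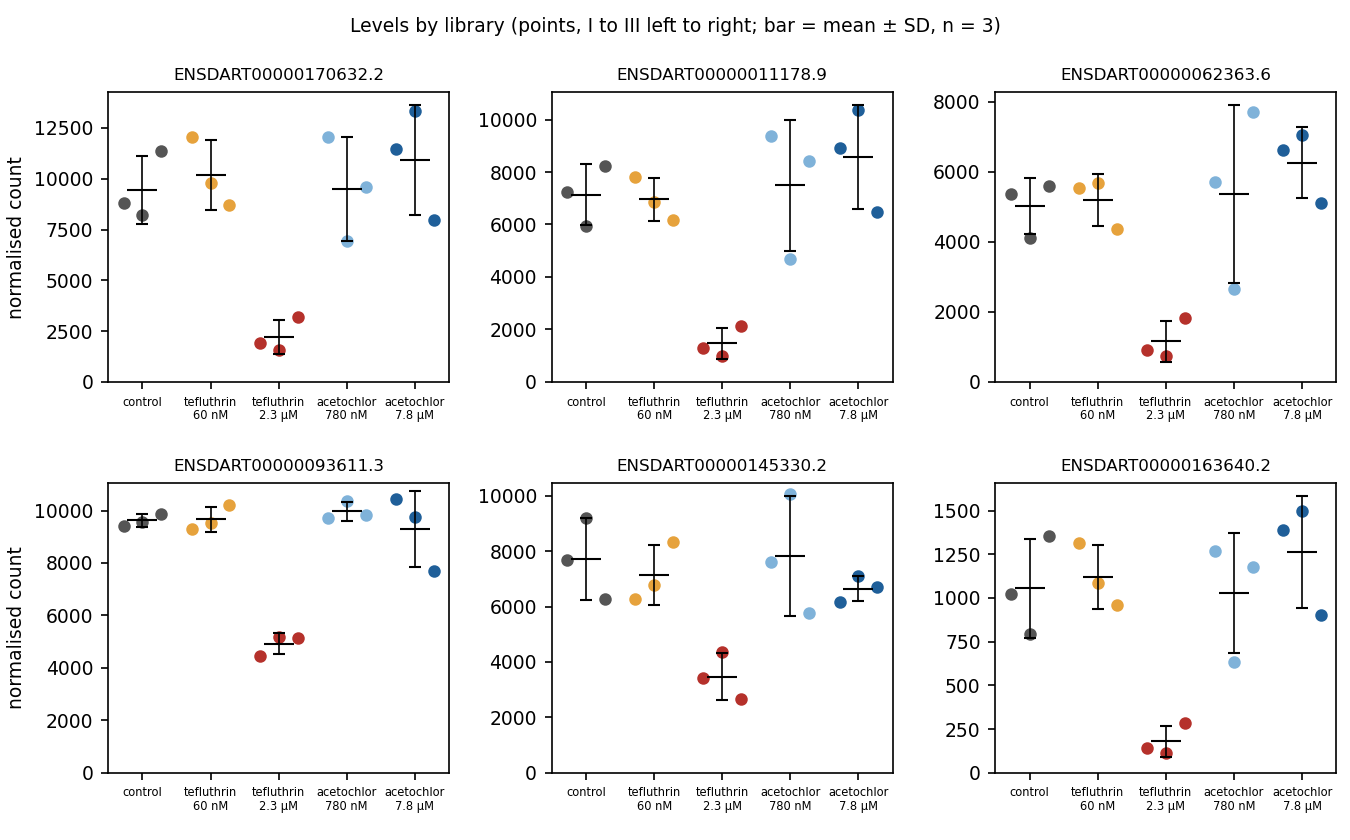
Normalised counts of 6 transcripts in each library (points, replicates I to III from left to right) with the group mean and SD (bars, n = 3); each vertical axis starts at 0. In every panel the points at tefluthrin 2.3 µM lie below all others, and in 4 panels acetochlor 780 nM replicate II is the lowest acetochlor library.

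The largest drops by rank were in part those of low and divided estimates. ENSDART00000168835.2 was listed at 0 in all 3 libraries at 2.3 µM, against 119, 74.4 and 92.3 normalised counts in control and 77.6, 102 and 97.5 at 60 nM. Set against a floor of 3 counts per library, on average 3.52 normalised counts at 2.3 µM, it was at least 27.1-fold lower than control; the log2 drop of 4.32 depends on the constant of 5 and is no bound. The median drop of the 200 was 1.11 also with this transcript at its bound. ENSDART00000176628.2 had 0, 9.77 and 0 normalised counts at 2.3 µM against a control mean of 63.2 ± 8.0, and ENSDART00000148289.3 had 0, 19.2 and 0 against 62.5 ± 22.1. ENSDART00000154515.3 had 0, 13.0 and 6.98 at 2.3 µM against 57.2 ± 15.8. All 4 had fractional estimates, which arise where reads are divided between transcripts, so their levels are uncertain. The same limit holds for ENSDART00000011178.9, ENSDART00000062363.6, ENSDART00000078996.5 and ENSDART00000145330.2 above, which also had fractional estimates. An estimate of 0 in at least 1 library at 2.3 µM occurred in 9 of the 200.

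Transcripts whose reads were not divided also reached large drops. Whole estimates in all 15 libraries were found for 46 of the 200 (23%), close to the 25.5% of all transcripts in the same range of control means. ENSDART00000163640.2, the first of these by drop, had 1022, 792 and 1355 normalised counts in control, 1315, 1086 and 958 at 60 nM and 143, 113 and 282 at 2.3 µM, a mean 5.88-fold below control. ENSDART00000166515.2 had 115, 91.7 and 136 in control and 11.7, 10.8 and 26.3 at 2.3 µM, 7.01-fold below control by the means. Both repeat the order of the libraries at 2.3 µM seen in ENSDART00000170632.2.

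ENSDART00000100287.6 had 1072, 879 and 1040 normalised counts in control and 221, 137 and 285 at 2.3 µM. ENSDART00000159987.2 had 134, 98.9 and 168 in control and 29.3, 20.5 and 44.6 at 2.3 µM. ENSDART00000079629.5 differed in order, with 62.0, 87.9 and 70.9 at 2.3 µM against 289, 244 and 264 in control. The median drop was 1.11 for the 46 transcripts with whole estimates and 1.1 for the 154 with a fractional estimate.

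The last transcripts taken were ENSDART00000144190.4, ENSDART00000129963.3 and ENSDART00000123971.4, and the first left out were ENSDART00000182523.1, ENSDART00000085142.6 and ENSDART00000126777.3, which met every condition. Each of them had a log2 drop of 0.86 when rounded. ENSDART00000123971.4 stood at 52.9% of its control mean and ENSDART00000182523.1 at 54.6%, so the limit between members and the other 49 parts like values.

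The acetochlor libraries show the same transcripts under a second pesticide. Both acetochlor groups were exposed, so a comparison between them would miss a transcript moved equally at both concentrations. The comparison of acetochlor 7.8 µM with 780 nM sets only libraries outside the choice against each other. Its error term is not free of the choice, since all 15 libraries shared 1 estimate of the spread. At tefluthrin 2.3 µM the median coefficient of variation was 21.2% in the members, against 10.5% over all transcripts in the same range of control means. These are not like levels, since the members' means had a median of 61.2 normalised counts at 2.3 µM and 146 in control. The part of lower counts in the wider spread was not tested. Between the acetochlor groups, edgeR's quasi-likelihood test with Benjamini-Hochberg adjustment over 35865 transcripts called 0 of the 200 at an adjusted p under 0.05. The share of all tested transcripts called was 0.0669%. Of the 200, 2 (1%) had an unadjusted p under 0.05, against 4.65% of all. Fitted with edgeR on the acetochlor groups alone, these were 2 (1%) and 3.25%. With 1 library left out, they ran from 1 (0.5%) and 3.67% without acetochlor 7.8 µM replicate II to 12 (6%) and 7.62% without acetochlor 780 nM replicate III. DESeq2 also called 0 of the 200, where it called 0.62% of all, and 2 of the 200 had an unadjusted p under 0.05, against 5.39% of all. With limma voom these were 0 of the 200 and 0.0641% of all called, and 7 of the 200 and 4.83% of all at an unadjusted p under 0.05. These results do not show that the transcripts were unchanged.

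The transcript with the smallest p in that comparison was ENSDART00000064752.7, which had fractional estimates. It had 94.7, 97.2 and 90.2 normalised counts at acetochlor 7.8 µM and 58.4, 76.5 and 45.9 at 780 nM, so the groups did not overlap. The log2 difference was 0.63 (SE 0.234, edgeR adjusted p = 0.975). ENSDART00000145697.2, also with fractional estimates, came next, with 299, 287 and 266 at 7.8 µM and 341, 298 and 325 at 780 nM, which overlap. Its log2 difference was -0.18 (SE 0.0786, edgeR adjusted p = 1).

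Against control, whose libraries the choice did use, edgeR called 0 of the 200 at acetochlor 7.8 µM and 0 at 780 nM. The shares of all tested transcripts called were 0.106% and 0%. At 7.8 µM 2 of the 200 had an unadjusted p under 0.05, where 7.12% of all did. Fitted with edgeR on control and 7.8 µM alone, 13 of the 200 (6.5%) did, against 7.75% of all. This share among the members thus depended on which groups were fitted together. There limma voom called 0 of the 200 and 0.117% of all, with 7 of the 200 and 7.35% of all at an unadjusted p under 0.05. DESeq2 called 0 of the 200 and 1.23% of all, with 7 of the 200 and 8.26% of all at an unadjusted p under 0.05. At 780 nM 2 of the 200 had an unadjusted p under 0.05, where 2.53% of all did. Fitted with edgeR on control and 780 nM alone, 5 of the 200 (2.5%) did, against 2.04% of all. For limma voom, 0 of the 200 and 0% of all were called, and 4 of the 200 and 2.95% of all had an unadjusted p under 0.05. For DESeq2, 0 of the 200 and 0.261% of all were called, and 4 of the 200 and 3.14% of all had an unadjusted p under 0.05. Among the most abundant members, ENSDART00000170632.2 had 12037, 6919 and 9592 normalised counts at 780 nM and 11465, 13322 and 7963 at 7.8 µM. Its log2 difference from control was 0.20 at 7.8 µM (SE 0.275, edgeR adjusted p = 0.994).

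As a group the transcripts lay near control under acetochlor. The fitted log2 difference had a median of -0.02 at 780 nM, against 0.00 over all tested transcripts, and of 0.08 at 7.8 µM, against 0.00. These medians moved when single libraries were left out. The 780 nM median was 0.08 without acetochlor 780 nM replicate II and 0.04 without control replicate III. It came to -0.05 when control replicate II was dropped, and to -0.06 and -0.07 when replicates I and III at 780 nM were dropped in turn. The 7.8 µM median was 0.03 without control replicate II and 0.03 without acetochlor 7.8 µM replicate II. Between 7.8 µM and 780 nM the median was 0.07, against 0.00 over all. By group means, 132 of the 200 were higher at 7.8 µM than at 780 nM, where 48.7% of all transcripts in the same range of control means were. The direction of both values between the acetochlor groups rested on 1 library: without acetochlor 780 nM replicate II the median was -0.04 and 79 of the 200 were higher at 7.8 µM. That median was 0.13 without acetochlor 780 nM replicate I or without replicate III, 0.03 without acetochlor 7.8 µM replicate II and 0.11 without acetochlor 7.8 µM replicate III.

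The mean at 7.8 µM was above control in 121 of the 200, where 48.5% of all were, and the mean at 780 nM in 90, where 48.5% of all were. The latter count was 134 without acetochlor 780 nM replicate II. The 3 libraries at 7.8 µM were all above the 3 controls in 15 members (background 6.95%) and all below them in 9 (background 8.81%). All 3 lay above those at 780 nM in 8 members (background 3.76%) and below them in 1 (background 4.06%). The counts of members above lie near the background and those of members below lie under it, which was not tested.

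In 175 of the 200 every acetochlor library lay above every library at tefluthrin 2.3 µM, where the background was 21.7%. The libraries at 2.3 µM belong to the choice, so nothing is read from this count. In the other 25 at least 1 acetochlor library reached into the range at 2.3 µM. One was ENSDART00000154515.3, with 54.2, 65.1 and 0 normalised counts at acetochlor 7.8 µM.

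The replicates of a group were not alike in these transcripts. The acetochlor 780 nM libraries were also the least alike over transcripts with whole estimates in general. Chi-square per degree of freedom was 9.42 for replicates I and II of that group, 11.1 for I and III and 22.9 for II and III. The highest value in another group was 7.56, for control replicates II and III. In acetochlor 780 nM replicate II the median of the 200 was 0.26 log2 units below the control mean, while replicates I and III of that group were 0.09 and 0.08 above it. All transcripts in the same range of control means had a median of -0.03 in replicate II. Replicate II was the lowest of its group in 144 of the 200 transcripts (72.0%), where it was the lowest in 37% of all. It was the highest in 18.

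**Figure D4:**
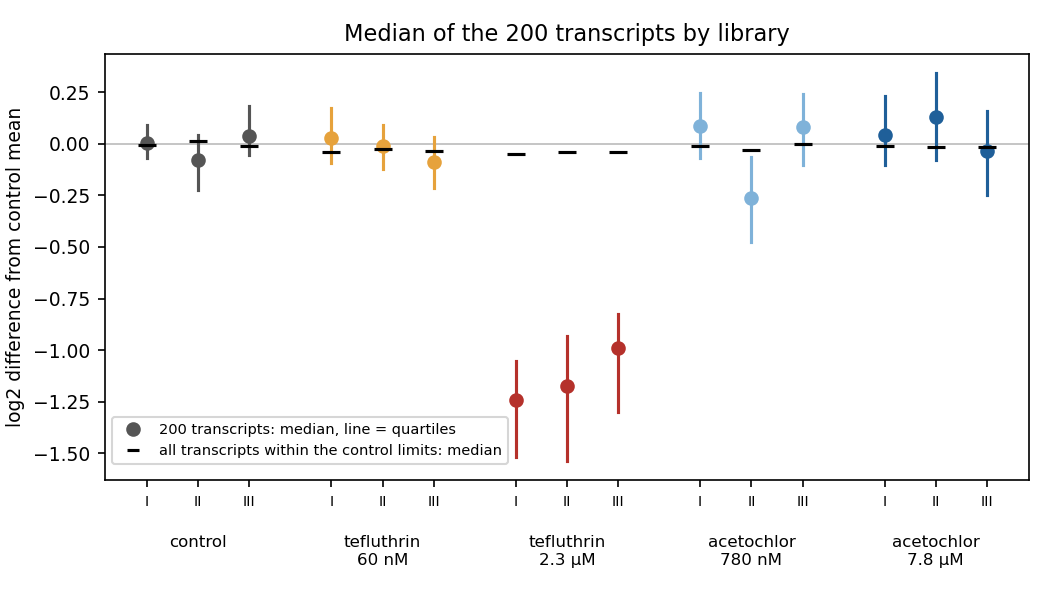
Median log2 difference from the control mean over the 200 transcripts in each library (points, lines from the lower to the upper quartile) and over all transcripts with control means of 50 to 10000 (black marks). Tefluthrin 2.3 µM lies between -1.24 and -0.99 by the choice, and acetochlor 780 nM replicate II, at -0.26, is the lowest of the other libraries.

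The dip in that library was present across levels of expression and in transcripts without divided reads. Replicate II was the lowest acetochlor 780 nM library in 40 of the 66 members with control means of 50 to 100, in 59 of the 78 at 100 to 300, in 28 of the 37 at 300 to 1000 and in 17 of the 19 above 1000. Among the 46 members with whole estimates it was the lowest in 41 (89.1%), where the background for such transcripts was 38.7%. The 49 transcripts that met every condition but were not kept had it lowest in 36 (73.5%). ENSDART00000163640.2, with whole estimates, had 1271, 634 and 1175 normalised counts at acetochlor 780 nM. With fractional estimates, ENSDART00000062363.6 had 5706, 2652 and 7702, and ENSDART00000011178.9 had 9364, 4668 and 8427. In each of these transcripts, the lowest acetochlor library still lay above the highest library at 2.3 µM.

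The dip was set beside other sets of transcripts, as a description. Replicate II was the lowest acetochlor 780 nM library in 31.4% of the 625 transcripts that stood at least 0.8 log2 units below control at both tefluthrin concentrations. It was the lowest in 28.6% of the 185 that stood at least 0.8 above control at 2.3 µM and within 0.15 of it at 60 nM. Neither of these sets had to have separated libraries or was cut to the largest differences, as the 200 were. Acetochlor 780 nM replicate II had the highest total, 25191374 estimated counts. Control replicate III had the next highest total, 24576528, and there the median of the 200 was 0.04 above the control mean. The part of library depth in the dip was not tested.

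Smaller differences were present among the 200 in other groups, some of them hardly in the 49 transcripts that met every condition and were not kept. As a median log2 difference from the other libraries of its group, control replicate II stood at -0.12 in the 200 and 0.01 in the 49. Tefluthrin 60 nM replicate III stood at -0.11 and -0.02, and acetochlor 7.8 µM replicate III at -0.11 and 0.00. For acetochlor 780 nM replicate II these values were -0.31 and -0.33. Other differences among tefluthrin libraries, which belong to the choice, remained at least in part in the 49. At 2.3 µM replicate I stood at -0.19 and -0.12, and replicate III at 0.21 and 0.18. At 60 nM replicate I stood at 0.08 and 0.07. Control replicate II was the lowest of its group in 108 of the 200 (54.0%, background 30.7%), tefluthrin 60 nM replicate III in 103 (51.5%, background 32.6%) and acetochlor 7.8 µM replicate III in 103 (51.5%, background 38.6%). In 79 transcripts acetochlor 780 nM replicate II and acetochlor 7.8 µM replicate III were both the lowest of their groups, 39.5% of the 200 against 14.6% of all. In 39 of the 200 (19.5%, background 3.11%) all 4 of these libraries were the lowest of their groups. The 4 were put together after their values were seen, each the library most often lowest in its group among these members. The control and 60 nM libraries also belong to the choice, which bears on the 39 but not on the 79, where both libraries are acetochlor. Nothing is read from the shares for the 79 and the 39, nor from those of control replicate II and tefluthrin 60 nM replicate III.

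**Figure D5:**
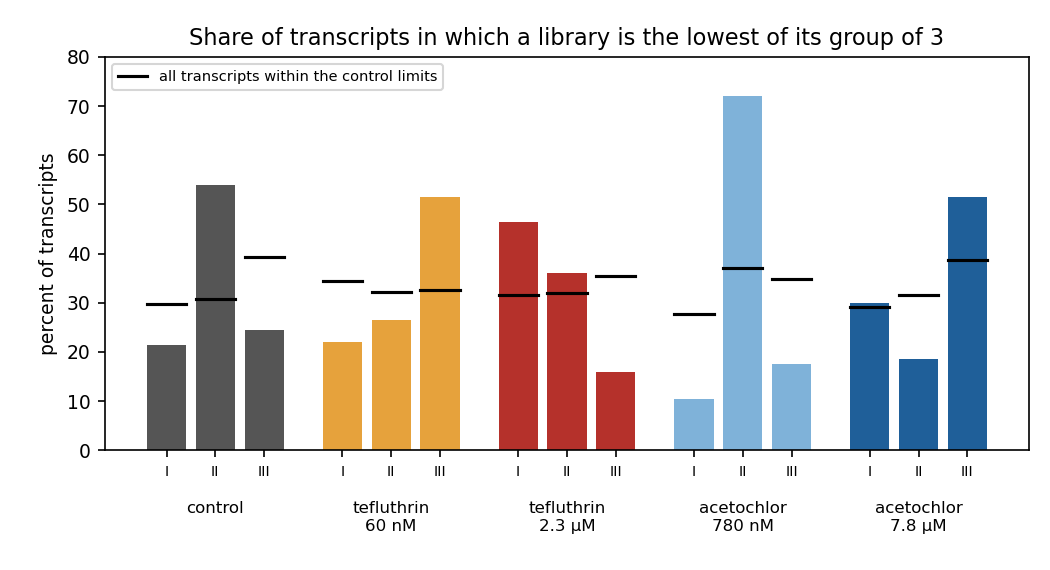
Bars give the percent of the 200 transcripts in which a library is the lowest of its group of 3, and black lines the same over all transcripts with control means of 50 to 10000. Acetochlor 780 nM replicate II reaches 72.0% against 37%, and control replicate II, tefluthrin 60 nM replicate III and acetochlor 7.8 µM replicate III lie between 51.5% and 54.0%.

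These 39 transcripts, grouped after their values were seen, included 7 of the 11 with a log2 drop of 2 or more and 9 of the 19 with control means above 1000. They held 37.8% of the summed counts of the 200 in control, had a median log2 drop of 1.26, and had whole estimates in 15 cases. In 33 of the 39, replicate III was the highest library at tefluthrin 2.3 µM, as it was in 109 of all 200. The libraries at 2.3 µM belong to the choice, so nothing is read from this count. They include ENSDART00000163640.2, ENSDART00000166515.2, ENSDART00000011178.9, ENSDART00000100287.6, ENSDART00000062363.6, ENSDART00000170632.2 and ENSDART00000159987.2. ENSDART00000145330.2 ran the other way in part, with its highest libraries at control replicate II (9200), tefluthrin 60 nM replicate III (8334) and acetochlor 780 nM replicate II (10074). At acetochlor 7.8 µM it had 6164, 7092 and 6691, where replicate III lay between the others.

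At acetochlor 780 nM the spread between replicates was wider in the members than over all transcripts at control means of 100 and above. Among members with control means above 1000, the median coefficient of variation between the acetochlor 780 nM libraries was 26.9%, against 9.32% over all transcripts at that level. In that group it was 22.2% against 13.9% at control means of 100 to 300, and 16.8% against 10.2% at 300 to 1000. Above 1000 it was 14.2% at acetochlor 7.8 µM against 6.58%, and 8.80% in control against 6.0%. At control means of 50 to 100 it was 14.8% against 15.8% in control and 18.5% against 19.0% at acetochlor 780 nM, but 20.9% against 17.3% at acetochlor 7.8 µM. At tefluthrin 2.3 µM, whose libraries chose the members, it was 29.1% against 18.0% at control means of 50 to 100. Above 1000 it was 24.3% against 5.79% there. By the choice the members had lower counts at 2.3 µM than in control, so at 2.3 µM these pairs do not compare like levels. Across the 200 members the size of the drop and the log2 difference between acetochlor 7.8 µM and 780 nM were nearly unrelated, with a Spearman coefficient of 0.05, a description over transcripts that share the same 15 libraries.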

How the data were processed

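Per the submitters' processing notes, the authors used FastQC, MultiQC and Salmon 1.6.0 with GRCz11; the annotation release is not given in the sources used here. The authors deposited estimated counts per transcript, not scaled for depth or length, from poly(A) libraries.

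The members and lists were chosen with earlier results of these data known. Normalised counts are deposited estimated counts divided by median-of-ratios factors over the 29953 transcripts above 0 in all 15 libraries. For tests, estimated counts were rounded and filtered with filterByExpr by group, a step that removed little (99.83% or more of each total stayed). They were scaled by TMM and fitted with edgeR 4.0.16 (glmQLFit, glmQLFTest; R 4.3.3) over 5 groups and 35865 transcripts. Tests were two-sided, and calls were made at a Benjamini-Hochberg adjusted p under 0.05. SE is the log2 difference over the square root of F. Alternatives used limma 3.58.1 and DESeq2 1.42.0; figures used matplotlib 3.10.9. On simulated data for acetochlor 7.8 µM against 780 nM (34196 transcripts), edgeR recovered 62.6% of log2 changes of 2 and 33% of changes of 1. Of the calls made there, 2.06% were false. The changed transcripts were drawn from a wider range of levels than the members. At acetochlor 780 nM the members' median coefficient of variation was 19.6%, against 13.1% over all transcripts in their range of control means. These rates therefore do not give the power for the 200.

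Replicate pairs within groups differed by more than sampling noise (chi-square 2.94 to 22.9 per degree of freedom), so each library counted once. Floors of 3 counts cover counting error only. Named transcripts were, by a rule written with those results known, the 10 largest drops, the 6 highest control means, the 6 largest drops with whole estimates, the 3 on either side of the limit and, with none called, the 2 smallest p-values between the acetochlor groups. Gene lists and counts of transcripts per gene were not run, since no identifier could be matched to a gene.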

Additional observations from a re-analysis of the deposited data

How the results depend on the processing

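No member was called in any of the 14 alternatives counted for each acetochlor comparison. Among these, the count of members with whole estimates came from the main fit, which called 0 members, so it could only be 0. The median difference of the members moved by less than the spread between libraries, although it changed sign when 1 library was left out in 2 of the comparisons. At acetochlor 780 nM that spread (SD 0.20 of the library medians) includes the low replicate II, so staying within it says little about stability. Leaving out 1 library at a time, the medians ran from -0.04 to 0.13 for 7.8 µM against 780 nM, from 0.03 to 0.10 for 7.8 µM against control and from -0.07 to 0.08 for 780 nM against control. Of the 200 members, 196 met the conditions with TMM scaling, 197 with library totals, 193 with a constant of 1, 170 with 20, and 138 to 196 with 1 library left out. With library totals the median of all transcripts in the range of control means shifted from -0.04 to -0.18 at tefluthrin 2.3 µM, and that of the members from -1.11 to -1.24.

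Counts over all transcripts moved more. For 7.8 µM against 780 nM, 24 were called, 221 with DESeq2, 2 with the groups compared alone, and 9 to 66 with 1 library left out. For 7.8 µM against control, 38 were called, 438 with DESeq2, 10 with the groups compared alone, 75 with library totals, and 15 to 110 with 1 library left out. For 780 nM against control, 0 were called (909 at an unadjusted p under 0.05; limma voom 0), 93 with DESeq2 and 0 to 3 with 1 library left out. The causes were not tested. With the replicate number as a term (replicate block), 12, 24 and 0 were called and 0 members. No pairing by number was seen: same-numbered libraries of different groups had correlations of deviations between -0.09 and 0.07. For libraries with different numbers they lay between -0.07 and 0.06. Whether libraries shared a clutch or batch was not tested.

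The added counts without 1 library ran from 79 to 142 (7.8 µM above 780 nM), 111 to 132 (7.8 µM above control), 70 to 134 (780 nM above control) and 176 to 183 (every acetochlor library above tefluthrin 2.3 µM); these were chosen after seeing the data. Changes of 1 log2 unit were recovered less often than those of 2 at this depth.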
